A study of Homo sapiens with 6 samples.

Results

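The histone modifier and reader genes of the cassette exon table were examined in MDA231-BrM2a cells, which derive from the breast cancer line MDA-MB-231 and metastasise to the brain. The control cells were a non-clonal population with the empty pRetroX-Tight-Pur vector, and the RBM47 cells were 1 clone, wt#10, with doxycycline-inducible expression of the RNA-binding protein RBM47. Both groups received 10 ng/ml doxycycline for 3 days, and each group had 3 samples. Because the control was non-clonal and the RBM47 cells were a single clone, an effect of RBM47 and a property of the clone cannot be told apart. Members were all events of genes whose symbol begins with KDM, JMJD, JARID, HDAC, SETD, MLL, KMT, BRD, CHD, PHF or MYST followed by a digit, together with EHMT1, EHMT2, EZH2, SUV39H1, WHSC1, NSD1, EP300 and CREBBP. This gave 275 events in 77 genes, of 24725 events in 7969 genes.

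A cassette exon is either kept between its neighbouring exons or skipped, and the inclusion rate is the fraction of transcripts that keep it, estimated from reads across exon junctions. Histone methyltransferases and acetyltransferases add marks to histone tails, demethylases and deacetylases remove them, and reader proteins with bromodomains or PHD fingers bind marked or unmarked tails. Most CHD proteins are chromodomain helicases that move nucleosomes. Alternative exons in such enzymes can insert or remove short protein segments, or introduce an early stop codon that marks the transcript for nonsense-mediated decay (NMD).

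The members comprised 79 events in 22 reader genes, 60 events in 10 deacetylase genes, 54 events in 17 methyltransferase genes, 53 events in 19 demethylase genes, 24 events in 7 CHD genes and 5 events in the acetyltransferase genes EP300 and CREBBP. These classes were assigned by gene symbol, so a class name does not mean that each of its genes has that activity on histones. No MYST gene was among them, and one member symbol, JMJD7-PLA2G4B, names a readthrough of a JMJD gene into its neighbour. A member event was covered by 31 to 7902 junction reads, with a median of 517, beside a median of 665 over all events. The reads are given as 1 total per group, and the depth per sample is therefore not known. In 11 of the 275 member rows the deposited sample rates did not average to the group means printed in the same row. Rates of 9 of these were recovered by matching both group means. Those of HDAC11 and BRD1 were assigned by the RBM47 mean alone, and their control rates do not average to the control mean printed in the row. RBM47 replicate 2 stood apart in having more extreme rates: 16.2% of its rates in member events with a mean rate of 0.1 to 0.9 were at one of the limits, 0 or 1, where the other 5 samples had 5.41% to 9.46%; over all events the shares were 14.8% and 6.07% to 7.64%. As a check of the cell line, the mesenchymal genes VIM, CD44 and FN1 had 741835, 25226 and 14407 junction reads in the control. In the RBM47 cells they had fewer, 507943, 13434 and 5167. KRT8, the only epithelial gene looked up that had an event, went the other way, with 3199 reads in control and 6358 in RBM47 cells. EPCAM, CDH1, KRT18, ESR1 and RBM47 itself had no event here, so the transgene could not be checked.

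For 150 member events in 63 genes, the cassette exon could be identified in GENCODE on GRCh37 from the gene and the distance between its outer ends. The exons below are printed because they carry the comparisons that follow: HDAC11 passed the study's criteria, BRD2, EHMT1 and BRD7 had non-overlapping groups and passed the pooled-read test, and KDM1A is a well-covered alternative exon at a similar level in both groups. Capitals mark the exon, and lower case marks the last 30 bases of the upstream intron and the first 10 bases of the downstream intron, all on the gene's own strand.
HDAC11: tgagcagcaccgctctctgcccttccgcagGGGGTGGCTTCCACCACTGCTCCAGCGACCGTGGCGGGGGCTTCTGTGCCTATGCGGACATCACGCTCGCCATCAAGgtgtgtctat
BRD2: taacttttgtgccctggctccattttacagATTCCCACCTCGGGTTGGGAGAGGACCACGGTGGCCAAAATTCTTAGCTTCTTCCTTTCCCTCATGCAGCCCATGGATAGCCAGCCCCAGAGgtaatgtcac
EHMT1: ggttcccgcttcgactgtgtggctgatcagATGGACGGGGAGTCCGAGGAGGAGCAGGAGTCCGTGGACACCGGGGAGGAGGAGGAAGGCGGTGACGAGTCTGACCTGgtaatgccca
BRD7: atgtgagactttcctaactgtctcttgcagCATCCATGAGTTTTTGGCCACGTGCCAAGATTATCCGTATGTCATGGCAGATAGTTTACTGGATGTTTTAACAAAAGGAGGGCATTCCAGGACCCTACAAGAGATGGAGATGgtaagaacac
KDM1A: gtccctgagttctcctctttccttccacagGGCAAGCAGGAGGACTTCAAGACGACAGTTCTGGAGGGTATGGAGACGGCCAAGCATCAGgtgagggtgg
The printed windows on GRCh37 are chr3:13542183-13542299 on the plus strand for HDAC11, chr6:32942768-32942899 on the plus strand for BRD2, chr9:140646753-140646870 on the plus strand for EHMT1, chr16:50357488-50357639 on the minus strand for BRD7 and chr1:23370890-23370989 on the plus strand for KDM1A. The HDAC11, EHMT1, BRD7 and KDM1A exons are coding, with lengths of 77, 78, 112 and 60 bases. The 92-base BRD2 exon holds annotated coding sequence in transcripts marked for NMD and in no protein-coding transcript. Such exons are called NMD-only here, though other transcripts may hold them as UTR or noncoding sequence. The EHMT1 and KDM1A exons are multiples of 3 in length, so including or skipping them keeps the reading frame, whereas the HDAC11 and BRD7 exons are not.

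To ask whether inclusion of these exons differed between RBM47 and control cells, the criteria of the study were applied first: mean rates that differ by 0.2 or more, 10 or more reads, and an unadjusted p no higher than 0.05 in a two-sided Fisher's exact test on each group's summed including and skipping reads. Of the 275 member events, 3 passed, 2 with higher inclusion in the RBM47 cells (HDAC11 and BRD1) and 1 with lower inclusion (KMT2E). This is 1.09% of the members, beside 1.40% of all 24706 events with rates. The background includes 251 rows whose rates were matched by the RBM47 mean alone, as those of HDAC11 and BRD1 were. In the single directions the background was 150 events (0.607%) higher and 196 (0.793%) lower. Both counts are larger than the numbers of exons the study reported, so the calls here are not the study's own list. The reason was not tested. The demethylases, CHD remodelers and acetyltransferases had no event past the criteria. Because the reads are pooled, Fisher's test takes no account of replicate variation. At the replicate level, limma, run on arcsine-transformed rates (square root), called none of the 74 members with a mean rate of 0.1 to 0.9 (adjusted p below 0.05 with means 0.2 or more apart), where 1.53% of the 5998 events tested were called. With no minimum difference the count was also 0, beside 2.23% of all events tested. The lowest limma adjusted p among the members was 0.249. At an unadjusted limma p under 0.05 there were 4 member events, 5.41% of those tested, beside 12.0% of all events tested.

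**Figure D1:**
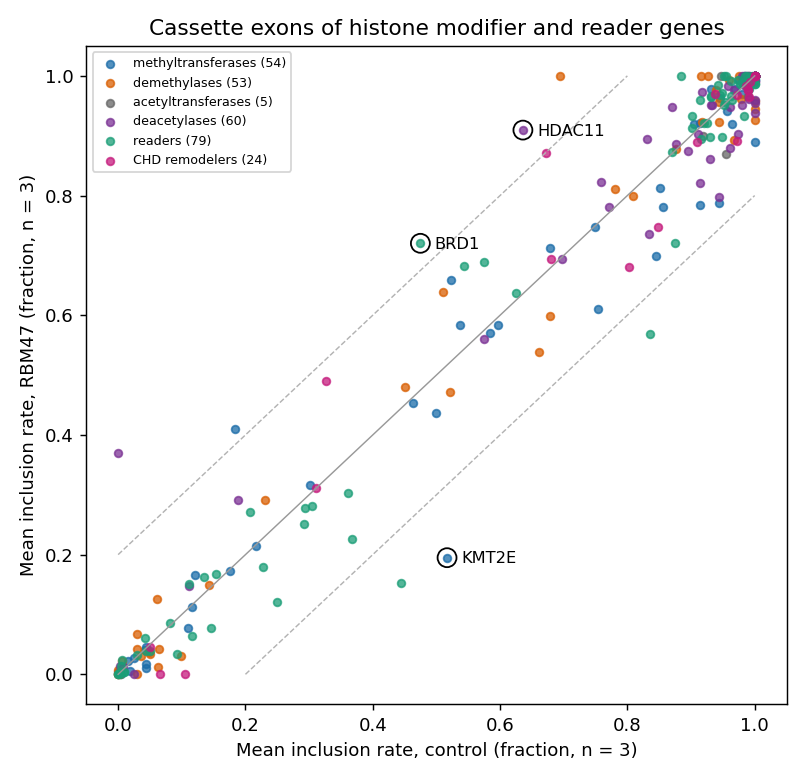
Mean inclusion rate (fraction) of each of the 275 member events in control cells (horizontal axis) and RBM47 cells (vertical axis), coloured by gene class, with the number of events in brackets. The solid line marks equality and the dashed lines a difference of 0.2; the 3 ringed events, KMT2E, HDAC11 and BRD1, passed the study's criteria, and most events lie near the solid line in the upper right corner.

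KMT2E, a PHD-finger protein of the trithorax family, had the lowest inclusion relative to control. Its event lies at chr7:104441879-104468705 in the coordinates of the deposited table, whose build is not named. The rates were 0.524, 0.526 and 0.5 in the control samples and 0.2, 0 and 0.385 in the RBM47 samples. Every RBM47 sample lay below every control sample. The mean fell from 0.517 ± 0.0145 to 0.195 ± 0.192 (SD, n = 3 each), on 55 control and 22 RBM47 reads, with a Fisher's exact test p of 0.0372, adjusted to 0.289 over all events. The limma adjusted p was 0.468, so the difference was not significant at the replicate level.

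HDAC11, the single class IV histone deacetylase, had rates of 0.308, 1 and 0.6 in the control samples and 0.895, 0.833 and 1 in the RBM47 samples. The control samples spanned most of the scale and the groups overlapped. The means were 0.636 ± 0.348 and 0.909 ± 0.0843 (SD, n = 3 each), on 36 and 55 reads, with an adjusted Fisher's exact test p of 0.0139 and a limma adjusted p of 0.692. Without control replicate 1 the difference was 0.109, below the 0.2 required.

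BRD1, a bromodomain and PHD-finger scaffold of histone acetyltransferase complexes, had rates of 0.515, 0.641 and 0.268 in the control samples and 0.419, 0.818 and 0.923 in the RBM47 samples. One RBM47 sample lay inside the control range. The mean difference was 0.245, with SDs of 0.190 and 0.266 (n = 3 each), on 257 and 169 reads. The adjusted Fisher's exact test p was 0.111 and the limma adjusted p 0.504. The difference computed from the summed reads was 0.135, and it was 0.142 without control replicate 3, 0.196 without RBM47 replicate 2 and 0.144 without RBM47 replicate 3, all below the 0.2 required. The HDAC11 and BRD1 rates rest on a match by the RBM47 mean alone, and their control means above differ from the printed ones. Their control values and differences are therefore uncertain, and without such rows no member had higher inclusion by the criteria.

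Outside these 3, 5 member events differed by at least 0.2 in mean rate but did not pass Fisher's exact test at an unadjusted p of 0.05: 2 in PHF7 and 1 each in HDAC2, KDM6A and SETD2. These 5 events were read 37 to 139 times in all. In total, 8 members (2.91%) differed by 0.2 or more, beside 2.66% of all events. The PHD-finger gene PHF7 had rates of 0.857, 0.818 and 0.833 in control and 0.5, 0.5 and 0.706 in RBM47 samples in the first of its events, without overlap between the groups. Its limma adjusted p was 0.394 and its Fisher's exact test p 0.0785. In the HDAC2 event, all 3 control samples were at 0 and the RBM47 samples at 0.111, 1 and 0, so the mean difference came from 1 sample, RBM47 replicate 2. KDM6A, an X-linked histone lysine demethylase, had 1, 0.333 and 0.750 in control and 1 in all 3 RBM47 samples, on 37 reads.

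By the read totals alone, 29 members had a Fisher's exact test p of at most 0.05, which is 10.5% beside 14.4% of all events. After adjustment over all events 6 remained, 2.18% beside 5.29%: BRD2, BRD7 and HDAC11 with higher inclusion and EHMT1, PHF1 and KDM5C with lower inclusion. In all 29 but the 3 above, the mean rates differed by 0.0024 to 0.156.

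BRD2, a BET family reader of acetylated histones, was the best-covered of the 6, with 3245 control and 2827 RBM47 reads. Its NMD-only exon, printed above, was included at 0.201, 0.208 and 0.214 in the control samples and at 0.247, 0.299 and 0.268 in the RBM47 samples. The groups did not overlap and the control samples lay close together. The mean was 0.208 ± 0.00635 in control and 0.271 ± 0.0264 in RBM47 cells (SD, n = 3 each), a difference of 0.0637. The adjusted Fisher's exact test p was 3.32e-07, whereas the limma adjusted p was 0.249, the lowest of all members.

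EHMT1, a histone lysine methyltransferase also called GLP, included its 78-base exon at 0.725, 0.742 and 0.795 in control samples and at 0.688, 0.667 and 0.477 in RBM47 samples. The groups did not overlap. The means were 0.754 ± 0.0364 and 0.610 ± 0.116 (SD, n = 3 each), with an adjusted Fisher's exact test p of 0.0493 and a limma adjusted p of 0.466. For EHMT2, its close relative, the 102-base exon had 0.512, 0.632 and 0.644 in control and 0.637, 0.486 and 0.629 in RBM47 samples. Here the samples of the groups were interleaved around means of 0.596 and 0.584 on 1044 reads.

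BRD7, a bromodomain subunit of a SWI/SNF remodeling complex, had rates of 0.913, 0.814 and 0.925 in control and 1 in all RBM47 samples. No skipping read was seen among 356 reads in the RBM47 cells, against 18 of 309 in the control, with an adjusted Fisher's exact test p of 5e-05. Its mean rate is above the range tested by limma. The 6 events of BRD9, another bromodomain protein of SWI/SNF complexes, differed by -0.0118 to 0.0183. PHF1, a Polycomb-associated reader, had 0.958, 0.945 and 0.943 in control and 0.911, 0.904 and 0.880 in RBM47 samples, without overlap. KDM5C, an X-linked histone lysine demethylase, included its exon at 0.0375, 0.0930 and 0.0566 in control and at 0, 0.0256 and 0.0105 in RBM47 samples, also without overlap and at a low level.

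**Figure D2:**
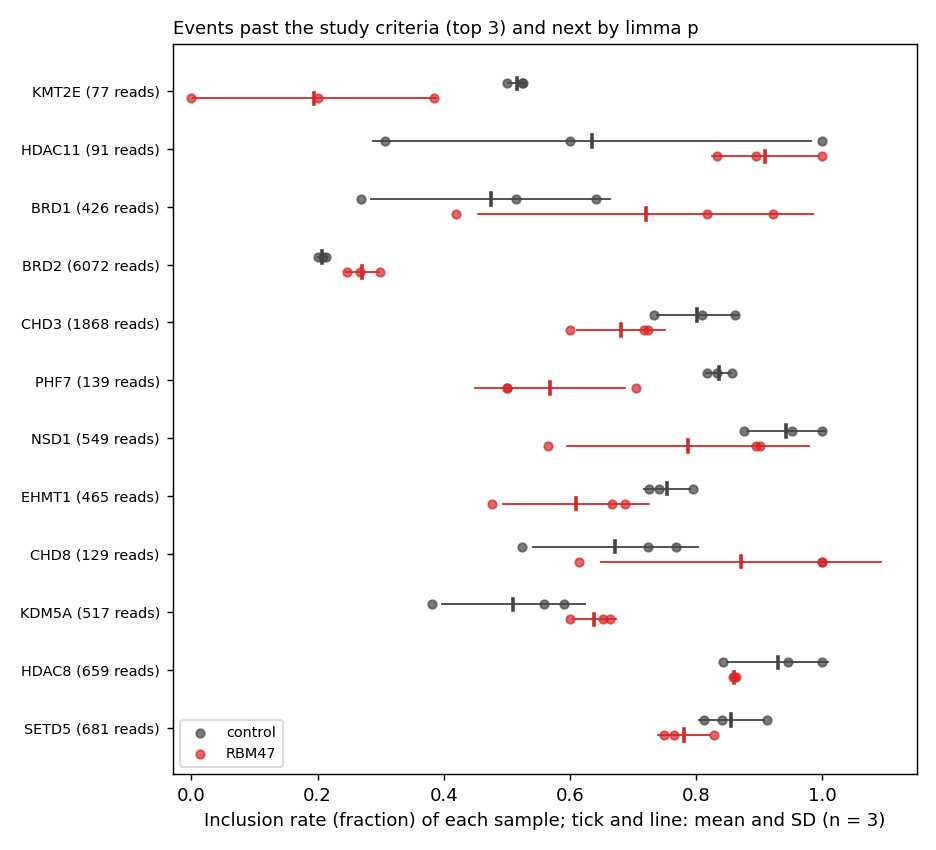
Inclusion rate (fraction, horizontal axis) of the 3 events past the study's criteria, KMT2E, HDAC11 and BRD1, and of the next 9 genes in order of limma p, with 1 point per sample, control grey and RBM47 red, and the mean and SD (n = 3) as a tick and a line; reads over both groups are in brackets. The BRD2 and EHMT1 groups are apart, at 0.208 against 0.271 and 0.754 against 0.610, while the HDAC11 and BRD1 samples overlap.

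Among the other events, CHD3, a helicase of the NuRD complex, had a lower rate in RBM47 cells in a pair of events that share their outer ends and so are not independent. The first had 0.734, 0.811 and 0.863 in control and 0.718, 0.6 and 0.724 in RBM47 samples, with a limma adjusted p of 0.295. From summed reads its difference was -0.0465, beside -0.122 from the sample rates. In the second event the groups overlapped, with means of 0.848 in control and 0.748 in RBM47 cells. KDM5A, the relative of KDM5C, had 0.381, 0.591 and 0.559 in control and 0.653, 0.663 and 0.6 in RBM47 samples. The direction was opposite to that of KDM5C, the groups did not overlap, and the limma adjusted p was 0.505. The histone lysine methyltransferase NSD1 had means of 0.943 and 0.787, with 1 RBM47 sample at 0.565 and the other 2 at 0.902 and 0.895, inside the control range. The remaining named genes, all with a limma adjusted p of at least 0.495, and with mean differences of -0.154 to 0.199, were the remodelers CHD8 and CHD1L, the deacetylases HDAC7, HDAC8 and HDAC10, the methyltransferases SETD5, SETD8 and KMT2C, and the readers PHF3, PHF6, PHF20L1 and BRD8.

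Over all members, 26 events (9.45%) had groups that did not overlap, beside 9.92% of all events. They were 11 higher (4%) and 15 lower (5.45%) in the RBM47 cells, beside 4.67% and 5.25% of all events. In 19 of the 26 the means differed by less than 0.1, and the median size of the difference was 0.0504. They included HDAC1 (0.007 and 0.013), CREBBP (0.947 and 1), EZH2 (0.965 and 0.919) and JMJD6 (0.065 and 0.043). Methyltransferases had 6 events lower without overlap and 1 higher, and readers 2 lower and 5 higher; these class counts are descriptions only.

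Many of these genes carried alternative exons that were used at intermediate levels in both groups. In the control cells, 157 member events (57.1%) had a mean inclusion above 0.9, 46 (16.7%) below 0.1 and 72 (26.2%) between these, beside 55.8%, 20.1% and 24.1% of all events. Inclusion was 1 in all 6 samples for 50 members and 0 in all 6 for 5. Among the 74 members with a mean rate of 0.1 to 0.9, 36 differed by less than 0.05 between the groups, and the median size of the difference was 0.0594, beside 0.0597 over all such events. The median SD of these members within a group was 0.0591 in control and 0.0644 in RBM47 cells, about as large as that difference.

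The most-read intermediate exons with a difference under 0.05 give the levels best. BRD8, a bromodomain subunit of the TIP60 acetyltransferase complex, included one exon at 0.258, 0.331 and 0.327 in control and 0.3, 0.244 and 0.297 in RBM47 samples on 3830 reads. Another BRD8 exon was at 0.870 ± 0.0198 and 0.873 ± 0.0362 (SD, n = 3 each) on 2367 reads. HDAC3, a class I histone deacetylase, had 0.860, 0.863 and 0.907 in control and 0.920, 0.898 and 0.842 in RBM47 samples on 3342 reads. The 102-base coding exon of CHD3 was at 0.314, 0.312 and 0.305 in control and 0.342, 0.294 and 0.298 in RBM47 samples. In each of these exons the groups overlapped. EZH2, the catalytic subunit of Polycomb repressive complex 2, had 0.679 ± 0.0392 and 0.712 ± 0.0507 (SD, n = 3 each) on 1850 reads. The 60-base exon of KDM1A, the LSD1 demethylase, was included at 0.433, 0.477 and 0.442 in control and at 0.498, 0.441 and 0.5 in RBM47 samples on 965 reads. The limma adjusted p values of these exons were 0.770 to 0.994. For WHSC1, the NSD2 methyltransferase, the sample rates gave means of 0.176 and 0.173, but the summed reads gave 0.398 and 0.440, so its level depends on which deposited values are used.

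**Figure D3:**
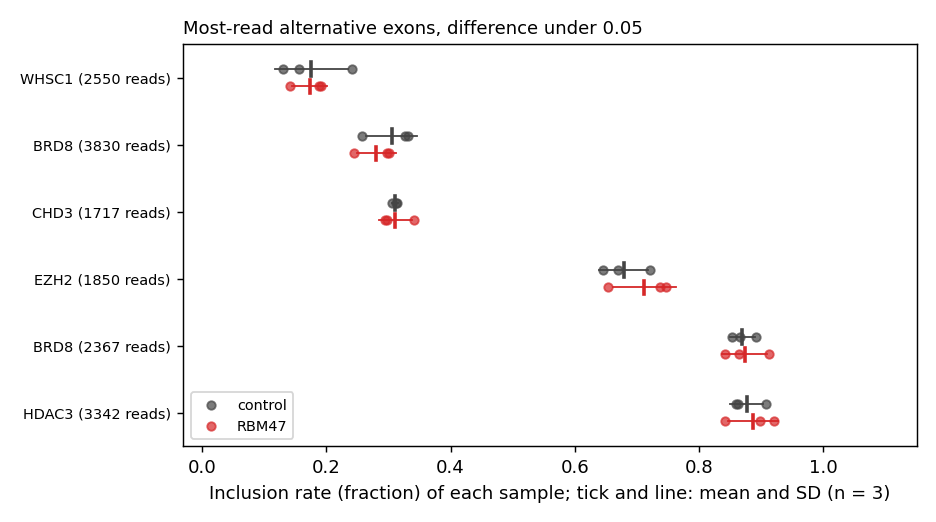
Inclusion rate (fraction, horizontal axis) of the 6 most-read member events with a mean rate of 0.1 to 0.9 and a difference under 0.05, with 1 point per sample, control grey and RBM47 red, and the mean and SD (n = 3) as a tick and a line. The control and RBM47 points of each exon overlap, from WHSC1 at 0.176 and 0.173 to HDAC3 at 0.877 and 0.887.

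The gap between rates and reads was not limited to WHSC1. Of 72 members with a control mean of 0.1 to 0.9, 13 (18.1%) had a rate from the summed reads that lay more than 0.1 from the mean of the samples, beside 17.9% of all such events. How the reads were weighted in the sample rates was therefore not fully recovered, and levels are given from the sample rates throughout.

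Some genes had many cassette events. BRD8 had 11, all on at least 1063 reads, and none of its differences was outside -0.0246 to 0.0446. HDAC6, a cytoplasmic tubulin deacetylase, and HDAC10 had 10 each. In HDAC6, 9 of the 10 were above 0.9 in control. SETD5 had 9 events and none above 0.9 in control, whereas EZH2 had 4 of 9 above 0.9 and 4 below 0.1. KDM6A had 7 and CHD1L had 7, and the coactivator CREBBP had 4, all above 0.9. Of the member events, 61 shared both outer ends with another member event, in 30 sets, and so drew on the same skipping reads.

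By annotation, 124 of the 150 matched exons were coding and 2 were coding in part. Another 11 were NMD-only, with coding sequence in NMD transcripts and in no protein-coding transcript. These may also lie in UTRs or noncoding transcripts. Of the rest, 9 held no coding sequence and lay in the UTR of some transcript, and 4 were in noncoding transcripts only. The coding exons had a median control inclusion of 0.971. Among coding exons with a mean rate of 0.1 to 0.9, 17 of 24 (70.8%) had a length divisible by 3, and among those above 0.9 it was 33 of 99 (33.3%), beside 63.8% and 43.6% over all events. The NMD-only exons, in 10 genes, had a median control inclusion of 0.0296, beside 0.0174 for the 694 NMD-only exons of all events, and 9 of the 11 were below 0.1 in control. The other 2 were the BRD2 exon and a 225-base SETD5 exon at 0.856 in control and 0.781 in RBM47 cells. A run of 5 T (TTTTT, on the transcribed sequence only) within 100 intron bases upstream was present for 34% of the member exons and within 100 bases downstream for 23.3%, beside 41.6% and 29.8% of all 9004 matched exons.

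**Figure D4:**
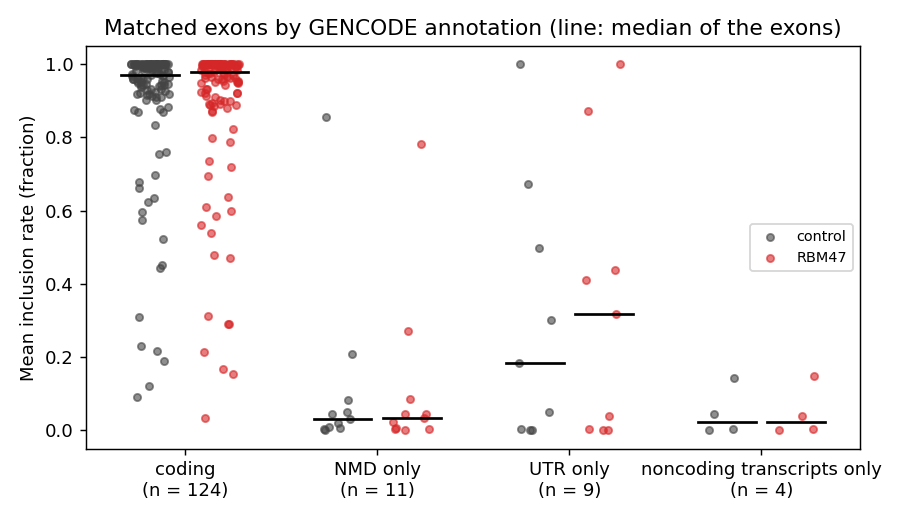
Mean inclusion rate (fraction, vertical axis) of the matched member exons by GENCODE annotation, with 1 point per exon in control (grey) and RBM47 cells (red) and the median of the exons as a black line. Coding exons cluster near 1, with a control median of 0.971, and NMD-only exons near 0, with a control median of 0.0296; the 2 exons that are coding in part are not drawn.

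Junction read totals give 1 value per group and no test. Over all member events they were 140101 in control and 125609 in RBM47 cells, a ratio of 0.897 beside 0.910 over all events. In these bulk samples, fewer cells that express a gene and less RNA per cell cannot be told apart. For genes with at least 200 reads, the median RBM47 to control ratio was 0.788 over 73 member genes and 0.865 over 6994 genes, and 12 of the member genes (16.4%) were below 0.5, beside 10.2%. By class, the median ratio was 1.11 for deacetylases, 0.823 for readers, 0.755 for demethylases, 0.749 for CHD remodelers, 0.668 for methyltransferases and 0.525 for the acetyltransferases, of which there are only 2. The lowest ratios were those of PHF6 (350 and 72 reads), KMT2A (188 and 44), HDAC9 (866 and 296) and CHD9 (510 and 184). The highest were those of PHF11 (1199 and 2135), PHF7 (228 and 323) and HDAC11 (479 and 678). Events that share outer ends count the same skipping reads repeatedly in these totals.

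**Figure D5:**
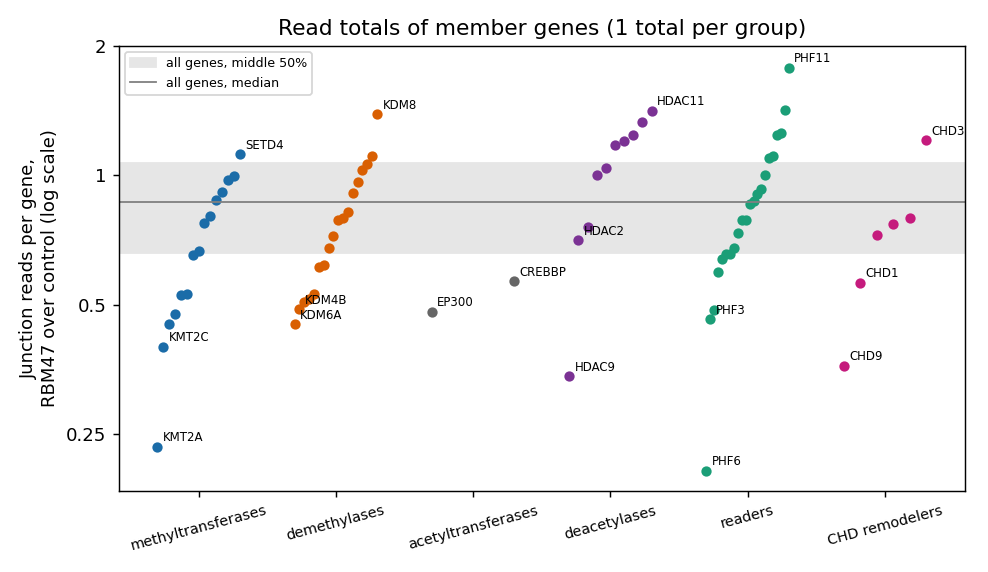
Ratio of junction reads in RBM47 over control cells (vertical axis, log scale) for the member genes with at least 200 reads, by class, with 1 point per gene and no replicates; the grey line and band are the median, 0.865, and the middle 50% of all genes. PHF6 is lowest at 0.206 and PHF11 highest at 1.78.

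A list of 109 other chromatin genes was read beside the members; 79 had events, 298 in all. By the study's criteria 8 events (2.68%) passed, 3 higher and 5 lower in RBM47 cells. By limma, 3 of 102 were called, all with higher inclusion in RBM47 cells, and 2 of them were events of the arginine methyltransferase PRMT2. PRMT2 rates in the first were 0.412, 0.469 and 0.453 in control and 0.587, 0.701 and 0.654 in RBM47 samples, a difference of 0.203 with a limma adjusted p of 0.0261. Both PRMT2 rows share their outer ends and were matched by the RBM47 mean alone, so their control rates do not average to the printed control mean. The difference between this list and the members was not tested.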

How the data were processed

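RNA of 3 control and 3 RBM47 cultures was sequenced after polyA selection. The submitters' processing notes name TopHat; the study's methods map cell line RNA-seq to hg19 (GRCh37) with STAR, but only 2150 of the 24725 events lie inside the GRCh37 gene of the same symbol, so the build of the table is not known. The authors deposited a table of cassette exons with an inclusion rate per sample, a fraction, and read counts for including and skipping junctions summed over the samples of each group. Their comparison columns (mean difference, odds ratio, Fisher p) were not used. Of 24725 rows, 1392, all with a Fisher p of at most 0.05, held rates that did not average to their printed group means (tolerance 3e-09); 1122 were re-matched by both means, 251 by the RBM47 mean alone, and 19 had no rates.

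Fisher's exact tests (scipy 1.17.1) used the deposited counts and were adjusted by the Benjamini-Hochberg method over all events. limma 3.58.1 (R 4.3.3) was fitted to the arcsine square root of all rates with a mean of 0.1 to 0.9, with a variance trend on log2 reads, and was tested on simulated data. Exons were matched by current gene symbol and outer span to GENCODE v44 on GRCh37. Gene sequences come from that genome. The sources used here do not say how the replicates were cultured, so limma p-values measure the spread between these samples, which may be technical. Fisher p-values rest on summed reads and measure no spread between samples.

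Named events were those past the study's criteria or with a limma adjusted p under 0.05, then further events by limma p to 25 genes, then, as levels only, the 6 most-read events with a mean rate of 0.1 to 0.9 and a difference under 0.05, and in each class the gene with most events. EHMT2, KDM1A, BRD7, BRD9, PHF1 and KDM5C, PRMT2 and the non-overlapping examples were chosen after their values were seen. The members, lists and tests were chosen with earlier results of these data known. Alternatives covered thresholds, row matching, transformation, filters, replicates and the membership rule. Some items are not reported here.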

Additional observations from a re-analysis of the deposited data

How the results depend on the processing

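The member counts are small and moved by up to 3 events with the setting. Beside 2 higher and 1 lower by the study's criteria, a minimum difference of 0.1 gave 4 and 4, and a minimum of 0.3 gave 0 higher. An adjusted Fisher's exact test p under 0.05 gave 1 and 0, rows aligned as deposited 0 and 0, and differences from summed reads 1 and 2. All 1392 misaligned rows had a Fisher's exact test p of at most 0.05. Keeping aligned rows only thus removes such events by construction, and its counts say little about the members. At least 30 reads in each group gave 0 lower, leaving out the rows matched by the RBM47 mean alone, an alternative chosen after seeing the data, gave 0 higher, and the looser membership rule gave 3 lower. Leaving out each sample in turn gave 1 to 2 higher and 1 to 2 lower: 1 higher without control replicate 1 or 3 or RBM47 replicate 2 or 3, and 2 lower without any 1 of the RBM47 samples. Fisher's test kept its group totals there, since reads per sample are not known.

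limma called no member at a difference of at least 0.2 in any setting, except 1 lower, MLLT4, under the looser rule; at an unadjusted p under 0.05 it gave 4 members, and Fisher's exact test at an adjusted p under 0.05 gave 6. The lowest member adjusted p was 0.177 to 0.386 without 1 sample each, 0.276 with log2 odds, 0.189 with untransformed rates, 0.203 without the trend and 0.751 on aligned rows. On aligned rows limma called 1 of 5355 events of the whole series, beside 92 of 5998 in the main setting. With all mean rates tested, 3 members with one group at a single value had an adjusted p under 0.05, 2 in HDAC10 and 1 in CHD9, with differences of -0.0616, -0.0408 and -0.0662. With the replicate number as a block no member was called (0 higher and 0 lower, lowest adjusted p 0.192). Same-numbered samples did not deviate together over 5998 events as a whole (correlations of -0.0195 to 0.0155). A link limited to few events would not show in these correlations, so whether the shared numbers mark pairs is not known.

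For the named events there were 270 alternative values, and 236 kept their direction and their side of a difference of 0.2. Of the rest, 13 dropped below it, 11 rose to it or above and 10 reversed. The log2 odds and replicate block settings change only the limma p and leave the difference as it was. Their values are therefore among the 236 by construction and say nothing about how stable the differences are. Of the 13, 5 came from summed reads (BRD1, PHF7, KDM6A, HDAC2 and SETD2) and 8 from leaving out 1 sample (HDAC11, BRD1, KDM6A, HDAC2 and SETD2); the 11 were in NSD1, CHD8, PHF6, SETD8, CHD1L and KMT2C, each without 1 sample. Without 1 sample each, the difference ranged from -0.036 to 0.355 for SETD8, from -0.090 to 0.401 for CHD1L, both negative only without RBM47 replicate 2, from -0.0067 to 0.0322 for HDAC3, from -0.0251 to 0.0306 for WHSC1, from -0.0166 to 0.0187 for the BRD8 exon at 0.870 in control and from -0.0143 to 0.0094 for the 102-base CHD3 exon; from summed reads WHSC1 gave 0.0421. The cause was not tested. Depth per sample is unknown, and events with few reads cannot show small differences.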

Other observations

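The membership rule asks for a digit after each prefix. A reading that asks for it after MYST only added 13 events in MLLT and SETDB genes. Events in MLLT4 and SETDB2 passed the study's criteria, both with lower inclusion in RBM47 cells. MLLT4 encodes the junction protein afadin and is not itself an MLL methyltransferase gene. Its inclusion was 0.624, 0.689 and 0.670 in control and 0.233, 0.273 and 0.254 in RBM47 samples, a fall from 0.661 ± 0.0334 to 0.253 ± 0.0197 (SD, n = 3 each) with a limma adjusted p of 0.00841. SETDB2, a histone methyltransferase family gene, had 0.889, 1 and 0.920 in control and 0.583, 0.565 and 0.611 in RBM47 samples, with a limma adjusted p of 0.0557. In both, every RBM47 sample lay below every control sample.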
